A study of Homo sapiens with 16 samples.

Results

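The genes described here are 9 transcriptional targets of the tumour suppressor p53, namely CDKN1A, MDM2, TP53INP1, GDF15, SESN1, ZMAT3, FAS, BTG2 and TP53I3, in 4 human lines descended from B cells. They were taken from a list of symbols, and each was read from a probe set that carries that symbol alone. Of the 9 genes, 8 had such a probe set, out of 18417 measured genes. Of those 8, 7 were bright enough to test, out of 12639 genes tested. BTG2 was not analysed here. GDF15 lay below the filter level of 6.27, the median of all values, on all 16 arrays.

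p53 is a transcription factor that cells keep scarce through MDM2, a ubiquitin ligase that marks it for destruction and whose own gene p53 switches on. When DNA damage or another stress stabilises p53, its targets halt the cell cycle, restrain growth signalling or start apoptosis. Several of these targets also answer to other factors, so their level is not a measure of p53 alone.

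RNA was measured on Affymetrix arrays in RPMI8226-HR, KMS-11-HR, U266-HR and IM-9-HR, hypoxia-resistant (HR) sublines kept for 24 hours at 1% oxygen, and in the parental cells of each line, kept for 24 hours at 20% oxygen. Each of the 8 groups had 2 arrays, 16 in all. Effects of resistance and of low oxygen itself cannot be told apart in this design. The labels say neither whether an HR subline is 1 clone nor whether arrays of the same group stem from independent cultures, so p-values measure only the spread between these arrays, which may be technical. The labels list all 4 lines as myeloma-derived, myeloma being a cancer of plasma cells. Of 8 plasma cell markers, 6 or 7 were above the filter level on both arrays of each group. Of 7 measured B cell markers, 6 were above it in IM-9-HR and 7 in parental IM-9, against 1 to 4 in each group of the other lines. These markers set IM-9 apart, so its contrasts with the other lines need not be differences between myelomas. Of 4 myeloid markers, 0 were above it in any group, and of 5 T and NK cell markers and 5 stromal markers, 1 or 2 each were above it in each group. Arrays of 1 group correlated at r between 0.993 and 0.996 over all probe sets, and arrays of different lines at 0.915 to 0.948.

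The stretches below are those before a transcription start that resemble the p53 response element, a pair of p53 decamers. They were found for MDM2, SESN1 and FAS only, so they are not a feature shown for all these genes. They come from RefSeq promoter windows of build GRCh38.p14, each running from 250 bases before a start to 50 after it, which were at hand for 8 of the 9 genes, 16 windows in all. Capitals mark each 20-base match, with no base between the decamers and at most 3 mismatches; the element reads the same on both strands. MDM2 is shown at chr12:68808903-68809000 on the plus strand, SESN1 at chr6:109008998-109009057 on the minus strand and FAS at chr10:88991289-88991348 on the plus strand.
MDM2: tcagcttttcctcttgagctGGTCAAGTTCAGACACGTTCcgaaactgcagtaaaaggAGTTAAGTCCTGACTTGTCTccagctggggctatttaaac
SESN1: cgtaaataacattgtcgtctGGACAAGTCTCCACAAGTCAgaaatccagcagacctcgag
FAS: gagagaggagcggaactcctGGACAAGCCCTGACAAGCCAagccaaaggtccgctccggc
MDM2 held 2 matches, of 2 and 3 mismatches, 94 and 56 bases before one of its downstream starts. The SESN1 match had 3 mismatches and began 49 bases before the most downstream of its starts. The FAS match had 2 mismatches and began 122 bases before the most downstream of its starts. Both matches thus lie after the other starts of their gene. GDF15 had a match only after its start. Over all genes, 6.39% had a match at this limit in any of their windows, and 4 of these 8 genes did. The 8 had 16 windows, against 35116 for all 27305 genes, so more windows per gene in which to match. Of 26 other p53 targets, from a list used further below, 8 had a match at this limit and 2 at up to 2 mismatches. At the stricter limit of 2 mismatches, 0.820% of all genes and 2 of the 8, MDM2 and FAS, had one. The genes were listed as p53 targets, the mismatch limits were chosen knowing the MDM2 matches, and a match is a resemblance in letters, not a measured site. CDKN1A, ZMAT3, TP53I3 and BTG2 had none within these windows.

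Parental levels were compared first, to ask how far the lines differ in these genes before any HR effect. CDKN1A, MDM2 and ZMAT3 were highest in IM-9, FAS was high in KMS-11 and IM-9, SESN1 was highest in RPMI8226, and TP53INP1 and TP53I3 were highest in U266. All 7 tested genes differed between the 4 parental lines (limma F test, adjusted p from 1.04e-11 to 4.13e-06), as did 94.3% of all genes tested. Of the 7 genes, those that differed in a pair numbered 7 for IM-9 minus U266 (beside 66.5% of all genes), 6 for IM-9 minus KMS-11 (63.8%), 6 for IM-9 minus RPMI8226 (73.7%), 6 for U266 minus KMS-11 (66.0%), 6 for U266 minus RPMI8226 (79.1%) and 7 for KMS-11 minus RPMI8226 (76.9%). Most genes differed between these lines, and the 7 were no exception. In these bulk samples, fewer cells of a type and less RNA per cell cannot be told apart.

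CDKN1A encodes p21, the cyclin dependent kinase inhibitor that carries out the p53 arrest of the cell cycle. On the log2 scale it read 10.20 and 10.17 in parental IM-9, 7.60 and 7.77 in parental U266, 6.20 and 6.35 in parental KMS-11, and 7.79 and 8.27 in parental RPMI8226. IM-9 stood above every other array, and the KMS-11 arrays lay on either side of the filter level, where signal and background are hard to separate. The distance of IM-9 to the other lines was 2.50 ± 0.13 for U266, 3.91 ± 0.13 for KMS-11 and 2.16 ± 0.13 for RPMI8226 (log2 difference ± SE, n = 2 arrays each; limma adjusted p = 1.24e-09, 1.66e-11 and 5.14e-09). U266 and RPMI8226 were neighbours at −0.35 ± 0.13 (adjusted p = 0.0256), and this call was lost without RPMI8226 parental array 2 (−0.11, adjusted p = 0.387) or U266 parental array 1 (−0.26, adjusted p = 0.155).

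MDM2, the ubiquitin ligase that holds p53 down, was detected well above the filter level on all 16 arrays. It read 10.72 and 10.87 in parental IM-9, 9.84 and 9.73 in parental U266, 10.08 and 10.20 in parental KMS-11, and 10.33 and 10.61 in parental RPMI8226. The order from the top was IM-9, RPMI8226, KMS-11 and U266, with no overlap between neighbours. IM-9 was 1.01 ± 0.10 above U266 (adjusted p = 1.5e-06), and 0.65 ± 0.10 above KMS-11 (adjusted p = 0.0001). The 3 steps between neighbours all passed with both arrays of each group. They were 0.32 ± 0.10 for IM-9 over RPMI8226 (adjusted p = 0.0135), −0.33 ± 0.10 for KMS-11 against RPMI8226 (adjusted p = 0.011) and −0.35 ± 0.10 for U266 against KMS-11 (adjusted p = 0.00891). Each of the 3 was lost when 1 of 2 arrays was left out. IM-9 over RPMI8226 was 0.18 (adjusted p = 0.167) without RPMI8226 parental array 1 and 0.25 (adjusted p = 0.0993) without IM-9 parental array 2. KMS-11 against RPMI8226 was −0.19 (adjusted p = 0.14) without RPMI8226 parental array 2 and −0.27 (adjusted p = 0.0785) without KMS-11 parental array 1, and U266 against KMS-11 was −0.29 (adjusted p = 0.07) without KMS-11 parental array 2 and −0.30 (adjusted p = 0.0686) without U266 parental array 2.

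FAS, the death receptor that carries the Fas ligand signal to caspases, split the lines into a high and a low pair. It read 10.61 and 10.66 in parental IM-9, 8.76 and 8.77 in parental U266, 10.79 and 10.91 in parental KMS-11, and 8.28 and 8.56 in parental RPMI8226. IM-9 was 1.87 ± 0.09 above U266 and 2.22 ± 0.09 above RPMI8226 (adjusted p = 4.02e-10 and 6.76e-11), and KMS-11 was 2.43 ± 0.09 above RPMI8226 (adjusted p = 3.44e-11). Within the low pair U266 was 0.35 ± 0.09 above RPMI8226 (adjusted p = 0.00237). Within the high pair IM-9 was −0.22 ± 0.09 against KMS-11 (adjusted p = 0.0404), a call that 3 other processing settings lost (adjusted p from 0.0542 to 0.0608). It was also lost without KMS-11 parental array 2 (−0.16, adjusted p = 0.225), without either IM-9 parental array (−0.19 and −0.24, adjusted p = 0.144 and 0.0641) and without any 1 of the 4 U266 arrays (adjusted p from 0.0513 to 0.0516).

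ZMAT3, a zinc finger RNA-binding protein, read 9.10 and 9.30 in parental IM-9, 7.72 and 7.64 in parental U266, 8.30 and 8.25 in parental KMS-11, and 7.68 and 7.84 in parental RPMI8226. IM-9 was highest, 0.93 ± 0.09 above KMS-11 (adjusted p = 5.25e-07), and U266 and RPMI8226 overlapped (−0.08 ± 0.09, 95% interval −0.27 to 0.10, adjusted p = 0.391). SESN1 encodes sestrin 1, which restrains mTORC1. It ran the other way, at 6.38 and 6.40 in parental IM-9, 6.98 and 6.97 in parental U266, 6.95 and 6.84 in parental KMS-11, and 8.57 and 8.56 in parental RPMI8226. RPMI8226 was the highest line for SESN1 and IM-9 the lowest, with a difference for IM-9 minus RPMI8226 of −2.18 ± 0.08 (adjusted p = 4.07e-11). The IM-9 arrays lay close above the filter level, so the size of that difference is uncertain. U266 and KMS-11 did not differ beyond their spread (0.08 ± 0.08, 95% interval −0.10 to 0.25, adjusted p = 0.427).

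TP53INP1, a nuclear protein of the stress response that takes part in p53 activity and autophagy, read 7.95 and 8.19 in parental IM-9, 9.02 and 9.02 in parental U266, 6.74 and 6.63 in parental KMS-11, and 7.56 and 7.88 in parental RPMI8226. U266 was highest and KMS-11 lowest, 2.34 ± 0.18 apart (adjusted p = 9.11e-08), and the middle neighbours IM-9 and RPMI8226 differed by 0.35 ± 0.18 (95% interval −0.05 to 0.74, adjusted p = 0.103). That difference passed without either RPMI8226-HR array (adjusted p = 0.0103); those 2 arrays had an SD of 0.54, the highest of the 8 groups for this gene. TP53I3, the quinone reductase PIG3, read 7.43 and 7.39 in parental IM-9, 8.08 and 8.14 in parental U266, 7.43 and 7.55 in parental KMS-11, and 6.22 and 6.33 in parental RPMI8226. U266 was 1.84 ± 0.08 above RPMI8226 (adjusted p = 1.27e-10), where the gene lay about the filter level, and IM-9 and KMS-11 did not differ beyond their spread (−0.08 ± 0.08, 95% interval −0.25 to 0.09, adjusted p = 0.387).

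**Figure D1:**
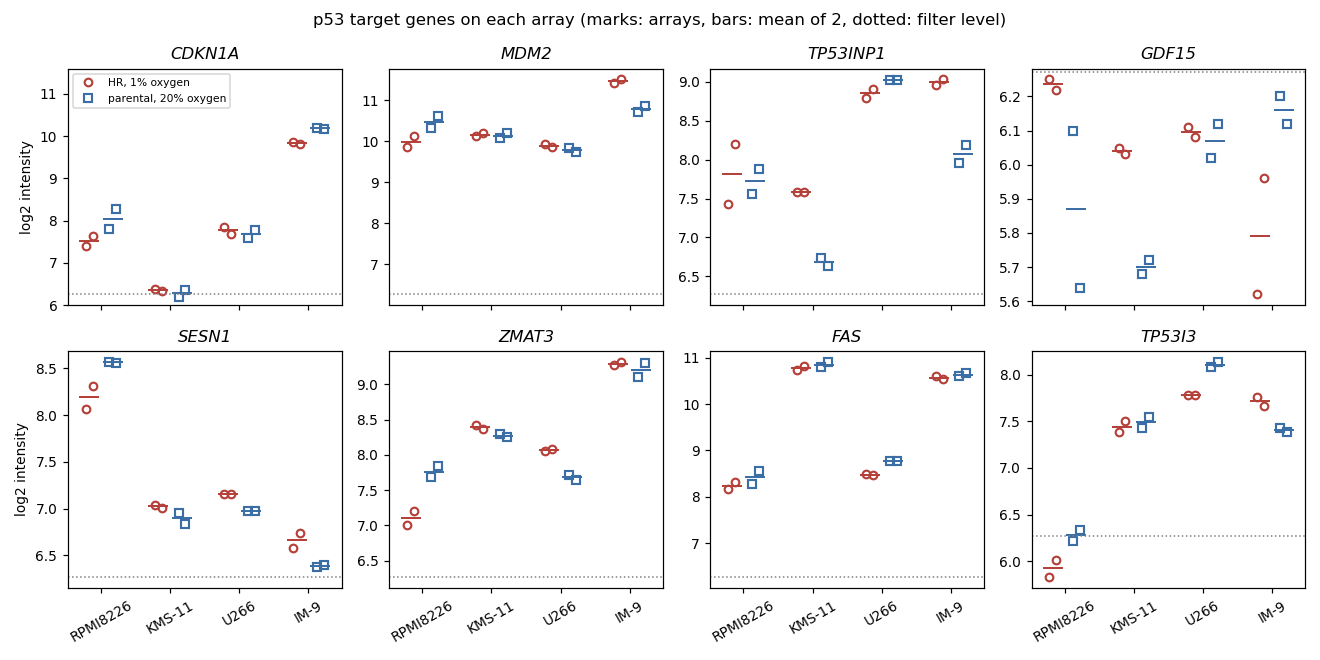
Log2 intensity of the 8 measured p53 target genes on each array, by line, with HR arrays as circles to the left of parental arrays as squares; short bars are means of 2 arrays and the dotted line is the filter level of 6.27. CDKN1A in IM-9 lies at 9.82 to 10.20 and in KMS-11 at 6.20 to 6.38, and all 16 values of GDF15 lie below the dotted line.

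HR cells were then set against parental cells within each line, to ask whether these genes moved with hypoxia resistance and low oxygen. They did not move as a block. In RPMI8226-HR 5 of the 7 tested genes fell and 0 rose, in IM-9-HR 4 rose and 0 fell, in U266-HR 1 rose and 2 fell, and in KMS-11-HR 1 rose. Of all genes tested, 15.3% fell and 10.7% rose in RPMI8226-HR, 14.4% rose and 21.3% fell in IM-9-HR, 9.68% rose and 8.42% fell in U266-HR, and 2.44% rose and 5.83% fell in KMS-11-HR. The HR effect differed between lines for 6 of the 7 genes, FAS being the exception (limma F test, adjusted p = 0.343), and for 45.4% of all genes tested. Each gene has a single variance estimate from all 16 arrays, so its tests are not independent. Where groups are said not to overlap, here or above, this only describes 2 against 2 arrays. How many of all genes were separated in this way was not counted.

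In RPMI8226-HR the genes that fell were ZMAT3, CDKN1A, MDM2, SESN1 and TP53I3. ZMAT3 read 7.0 and 7.20 in RPMI8226-HR, against 7.68 and 7.84 in parental RPMI8226, and fell by 0.66 ± 0.09 on the log2 scale (adjusted p = 9.18e-05). Its arrays did not overlap, and it changed most of the 7 genes in this line. CDKN1A read 7.40 and 7.63 in RPMI8226-HR, against 7.79 and 8.27 in the parental line, a fall by 0.52 ± 0.13 (adjusted p = 0.0102). MDM2 read 9.86 and 10.12, against 10.33 and 10.61 in the parental line, a fall by 0.48 ± 0.10 (adjusted p = 0.0042). The HR arrays of both genes lay below the parental ones, by a gap no wider than the spread within the groups. SESN1 read 8.07 and 8.31 in RPMI8226-HR, against 8.57 and 8.56, and fell by 0.38 ± 0.08 (adjusted p = 0.00381). TP53I3 read 5.83 and 6.01, against 6.22 and 6.33, and fell by 0.35 ± 0.08 (adjusted p = 0.00482) at a level below the filter on 3 of the 4 arrays. The falls of ZMAT3 and SESN1 held when any 1 array was left out. Without RPMI8226 parental array 2, CDKN1A was −0.28 (adjusted p = 0.109) and MDM2 −0.34 (adjusted p = 0.0536). Without RPMI8226-HR array 1 they were −0.40 (adjusted p = 0.0999) and −0.35 (adjusted p = 0.0537), and TP53I3 was −0.26 (adjusted p = 0.054).

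FAS and TP53INP1 did not pass in RPMI8226-HR. FAS read 8.16 and 8.31 in RPMI8226-HR, against 8.28 and 8.56 in the parental line, with a difference of −0.18 ± 0.09 (adjusted p = 0.144), and −0.32 (adjusted p = 0.0171) without parental array 1. TP53INP1 read 7.43 and 8.20 in RPMI8226-HR, against 7.56 and 7.88, and its 2 HR arrays lay on opposite sides of the parental pair. Its difference of 0.09 ± 0.18 became 0.47 (adjusted p = 0.0237) without HR array 1, and −0.29 (adjusted p = 0.135) without HR array 2.

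In IM-9-HR the genes that rose were TP53INP1, MDM2, TP53I3 and SESN1. TP53INP1 read 8.96 and 9.03 in IM-9-HR, against 7.95 and 8.19 in parental IM-9, and rose by 0.92 ± 0.18 (1.90-fold, adjusted p = 0.00173). MDM2 read 11.43 and 11.51 in IM-9-HR, against 10.72 and 10.87, and rose by 0.68 ± 0.10 (1.60-fold, adjusted p = 0.000276). For both genes the HR arrays lay well above the parental ones, and both calls held when any 1 array was left out. TP53I3 read 7.76 and 7.67 in IM-9-HR, against 7.43 and 7.39, and rose by 0.30 ± 0.08 (adjusted p = 0.00902), a call lost without HR array 1 (0.26, adjusted p = 0.0765). SESN1 read 6.58 and 6.74 in IM-9-HR, against 6.38 and 6.40, all close above the filter level, where signal and background are hard to separate. It rose by 0.27 ± 0.08 (adjusted p = 0.0196). This smaller rise was lost without either parental array (adjusted p = 0.072 and 0.0502) or HR array 2 (0.19, adjusted p = 0.169).

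The cell cycle inhibitor gene did not go with MDM2 in IM-9-HR. CDKN1A read 9.86 and 9.82 in IM-9-HR, against 10.20 and 10.17 in parental IM-9. Its groups did not overlap, and the difference of −0.35 ± 0.13 missed the threshold (adjusted p = 0.0534). It passed, still downward, with quantile normalization again (adjusted p = 0.0439), the stricter filter (0.0426), a trended and robust variance (0.0299) and without either RPMI8226 parental array (0.0118). ZMAT3 was 0.09 ± 0.09 (adjusted p = 0.437) and FAS −0.07 ± 0.09 (adjusted p = 0.562).

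KMS-11-HR showed 1 call. TP53INP1 read 7.58 and 7.58 in KMS-11-HR, against 6.74 and 6.63 in parental KMS-11, and rose by 0.89 ± 0.18 (1.86-fold, adjusted p = 0.00985). The size held without any 1 array, but the call was lost without parental array 2 (0.84, adjusted p = 0.0779), HR array 1 (0.90, adjusted p = 0.0633) or HR array 2 (0.89, adjusted p = 0.0667). The other 6 genes lay between −0.08 for FAS and 0.13 for ZMAT3 and SESN1, with adjusted p from 0.376 to 0.931.

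In U266-HR the genes were divided. ZMAT3 read 8.06 and 8.09 in U266-HR, against 7.72 and 7.64 in parental U266, and rose by 0.39 ± 0.09 (1.31-fold, adjusted p = 0.00579). TP53I3 read 7.78 and 7.78, against 8.08 and 8.14, and fell by 0.33 ± 0.08 (adjusted p = 0.0095). FAS read 8.49 and 8.46, against 8.76 and 8.77, and fell by 0.29 ± 0.09 (adjusted p = 0.0328). No HR array overlapped a parental array for these 3 genes, which with 2 arrays per group adds little to the calls. The rise of ZMAT3 was lost without parental array 2 (0.36, adjusted p = 0.0526), and the fall of TP53I3 without parental array 2 (−0.30, adjusted p = 0.0766), HR array 1 (−0.33, adjusted p = 0.0539) or HR array 2 (−0.33, adjusted p = 0.0569). The fall of FAS was lost without any 1 of the 4 U266 arrays (adjusted p from 0.104 to 0.15) and without the filter on low values (adjusted p = 0.0536). SESN1 was 0.19 ± 0.08 (adjusted p = 0.132), MDM2 0.11 ± 0.10 (adjusted p = 0.543), CDKN1A 0.09 ± 0.13 (adjusted p = 0.709) and TP53INP1 −0.17 ± 0.18 (adjusted p = 0.593).

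**Figure D2:**
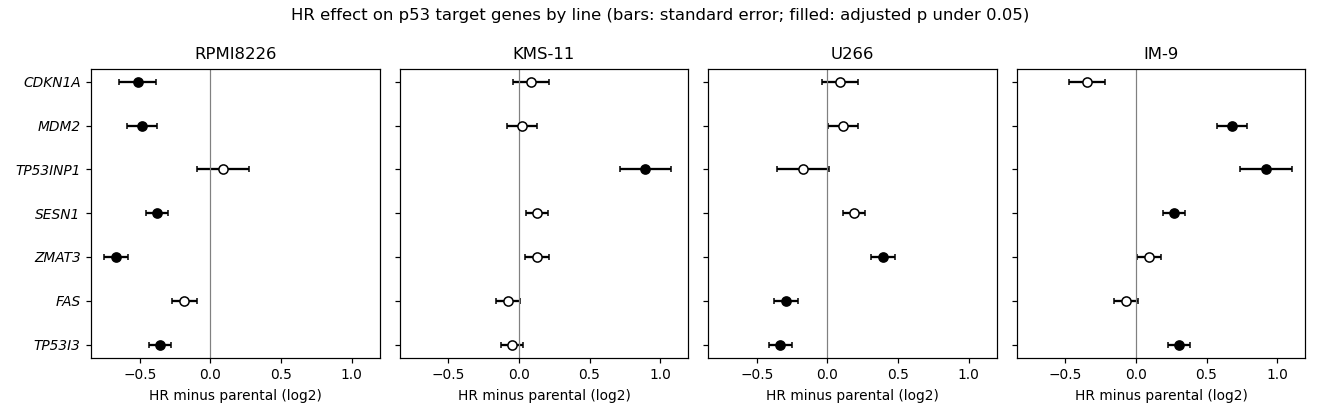
HR minus parental difference on the log2 scale for the 7 tested p53 target genes, 1 panel per line, with bars of 1 standard error; filled circles passed an adjusted p of 0.05. In RPMI8226 the 5 filled circles lie left of 0, in IM-9 the 4 filled circles lie right of 0, from 0.27 for SESN1 to 0.92 for TP53INP1, and in KMS-11 only TP53INP1 is filled.

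Differences between the HR effects were tested directly for each pair of lines. Of the 7 genes, 3 differed for IM-9 minus U266 (beside 30.3% of all genes), 2 for IM-9 minus KMS-11 (17.5%), 5 for IM-9 minus RPMI8226 (31.5%), 1 for U266 minus KMS-11 (14.1%), 4 for U266 minus RPMI8226 (25.6%) and 5 for KMS-11 minus RPMI8226 (17.6%). The 2 genes for IM-9 minus KMS-11 were MDM2 and TP53I3, the second of which was lost without any 1 of the U266, IM-9 or KMS-11-HR arrays or KMS-11 parental array 2 (adjusted p from 0.0582 to 0.164). The last count, of 5, was 2 without the filter, without either RPMI8226 parental array 2 or RPMI8226-HR array 1, and without KMS-11 parental array 1 or either KMS-11-HR array. MDM2 set IM-9 apart from the other lines, its effect being 1.16 ± 0.15 larger than in RPMI8226 (adjusted p = 7.64e-05), 0.66 ± 0.15 larger than in KMS-11 (adjusted p = 0.00852) and 0.57 ± 0.15 larger than in U266 (adjusted p = 0.0107). It also set RPMI8226 apart, being 0.59 ± 0.15 larger in U266 and 0.50 ± 0.15 larger in KMS-11 (adjusted p = 0.0103 and 0.0332). CDKN1A was 0.61 ± 0.18 and 0.60 ± 0.18 larger in U266 and KMS-11 than in RPMI8226 (adjusted p = 0.0273 and 0.038). For MDM2 and CDKN1A the KMS-11 call was lost without the filter (adjusted p = 0.0526 and 0.0569). Without 1 array the CDKN1A differences to RPMI8226 ranged from 0.37 to 0.84, both for U266 and for KMS-11. CDKN1A read 6.20 to 6.38 in KMS-11, about the filter level, where signal and background are hard to separate. ZMAT3 set RPMI8226 apart, with an effect 0.76 ± 0.12 larger in IM-9, 1.06 ± 0.12 larger in U266 and 0.79 ± 0.12 larger in KMS-11 (adjusted p = 0.00045, 3.9e-05 and 0.000648). SESN1 did the same, with effects 0.65 ± 0.11, 0.57 ± 0.11 and 0.51 ± 0.11 larger in IM-9, U266 and KMS-11 than in RPMI8226 (adjusted p = 0.000905, 0.0027 and 0.00859). TP53INP1 had an effect 0.83 ± 0.26 larger in IM-9 and 0.80 ± 0.26 larger in KMS-11 than in RPMI8226 (adjusted p = 0.0266 and 0.0488). Without 1 array these differences were 0.45 to 1.22 and 0.42 to 1.19. The second call was lost with quantile normalization again (adjusted p = 0.0577) and without the filter (adjusted p = 0.0693). TP53INP1 also separated IM-9 and KMS-11 from U266. Its effect was 1.09 ± 0.26 larger in IM-9 than in U266 (adjusted p = 0.00627), −1.07 ± 0.26 in U266 relative to KMS-11 (adjusted p = 0.0148, but 0.054 without KMS-11 parental array 2 and 0.0533 without U266-HR array 1), and 0.03 ± 0.26 in IM-9 relative to KMS-11 (95% interval −0.53 to 0.59). TP53I3 rose in IM-9-HR and fell in U266-HR and RPMI8226-HR, and its effect was 0.64 ± 0.11 larger in IM-9 than in U266 (adjusted p = 0.000852) and 0.66 ± 0.11 larger than in RPMI8226 (adjusted p = 0.00066).

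Called changes in opposite directions were found for 4 of the 7 genes, MDM2, SESN1, ZMAT3 and TP53I3, and for 10.8% of all genes tested. For each of these 4 genes, a call in at least 1 direction was lost when 1 array was left out. TP53INP1 rose in 2 lines, and CDKN1A and FAS each fell in 1. When each line counted once (n = 4 lines), 0 of the 7 genes passed in limma, and 0 had an unadjusted p under 0.05. Of all genes 0% passed, and 793 had an unadjusted p under 0.05. With groups as a random effect, 0 of the 7 passed as well. The largest mean difference was that of TP53INP1, 0.43 ± 0.21 (95% interval −0.07 to 0.94, adjusted p = 0.764), followed by CDKN1A at −0.17 ± 0.13 (95% interval −0.48 to 0.14, adjusted p = 0.775) and FAS at −0.16 ± 0.07 (95% interval −0.33 to 0.02, adjusted p = 0.764). FAS was lower on average in 4 of 4 HR lines.

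GDF15, a secreted stress cytokine, was below the filter level throughout. It read 5.62 and 5.96 in IM-9-HR against 6.20 and 6.12 in parental IM-9, 6.11 and 6.08 in U266-HR against 6.02 and 6.12 in parental U266, 6.05 and 6.03 in KMS-11-HR against 5.68 and 5.72 in parental KMS-11, and 6.25 and 6.22 in RPMI8226-HR against 6.10 and 5.64 in parental RPMI8226. Fitted with no filter, its differences were −0.37 ± 0.13 in IM-9, 0.02 ± 0.13 in U266, 0.34 ± 0.13 in KMS-11 and 0.36 ± 0.13 in RPMI8226, with adjusted p of 0.0552, 0.951, 0.186 and 0.0772. Without the filter its HR effect differed between the lines (F test, adjusted p = 0.0211), by −0.74 ± 0.18 for IM-9 minus RPMI8226 (adjusted p = 0.0119) and by −0.71 ± 0.18 for IM-9 minus KMS-11 (adjusted p = 0.0256). Its parental levels differed too (F test, adjusted p = 0.0217). At this brightness a low level and background are hard to separate.

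The pattern over the 8 group means was set against every other tested gene, as a description; HR and parental means of a line share their cells. The closest to CDKN1A were MED11 (Pearson r = 0.986) and DDB2 (r = 0.984), the second of which encodes a DNA damage recognition protein and is itself among the other p53 targets listed. DDB2 read 9.41 and 9.33 in IM-9-HR against 9.43 and 9.38 in parental IM-9, and 7.74 and 7.77 in KMS-11-HR against 7.70 and 7.68 in parental KMS-11, the highest and the lowest line as for CDKN1A. The closest to MDM2 were CD83 (r = 0.981) and USP12 (r = 0.972), and to TP53INP1 PJA2 (r = 0.979) and KRABD2 (r = 0.958). ZC3H13 and UBXN7 were closest to ZMAT3 (r = 0.990 and 0.989), CUL2 and SEPTIN11 to FAS (r = 0.995 and 0.994), DIRAS1 and RXRB to SESN1 (r = 0.996 and 0.989), and MTRF1L and UBR1 to TP53I3 (r = 0.995 and 0.992). Among themselves the 7 genes did not share 1 pattern. Over the 8 means, CDKN1A and MDM2 correlated at r = 0.744 and MDM2 and ZMAT3 at r = 0.786, whereas SESN1 correlated with the other 6 at r from −0.836 to −0.225.

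The wider pathway was read from lists of 36 other p53 targets, of which 28 were tested, and of 27 regulators of p53, of which 24 were tested. Of the 28 other targets, 4 rose and 4 fell in IM-9-HR, 5 rose and 3 fell in U266-HR, 1 rose and 5 fell in KMS-11-HR, and 4 rose and 4 fell in RPMI8226-HR. The shares of all genes that rose and fell were 14.4% and 21.3% in IM-9-HR, 9.68% and 8.42% in U266-HR, 2.44% and 5.83% in KMS-11-HR, and 10.7% and 15.3% in RPMI8226-HR. The rise in KMS-11-HR, which was that of CMBL (named after its values were seen), and the falls of DRAM1 in KMS-11-HR and RPMI8226-HR lay below the filter level on all 4 arrays of the line. The list's median difference was −0.02 in IM-9, 0.024 in U266, −0.049 in KMS-11 and −0.035 in RPMI8226, beside −0.06, −0.011, −0.018 and −0.015 over all genes tested. Those medians lay near that of all genes in each line, also in RPMI8226, where the median of the 7 genes above was −0.38.

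PMAIP1, which encodes the pro-apoptotic BH3 protein NOXA, read 9.23 and 9.27 in U266-HR, against 6.86 and 6.65 in parental U266, and rose by 2.49 (5.63-fold, adjusted p = 3.97e-10). It fell by 0.30 in KMS-11-HR and by 0.26 in RPMI8226-HR (adjusted p = 0.0416 and 0.0313), so it too was called both ways. SUSD6, a membrane protein gene, read 9.41 and 9.61 in IM-9-HR, against 8.09 and 8.31, and rose by 1.31 (adjusted p = 1.58e-06). SFN, the 14-3-3 sigma protein that holds cells before mitosis, read 9.0 and 9.81 in RPMI8226-HR, against 7.99 and 7.86, and rose by 1.48 (adjusted p = 0.000171), with HR arrays far apart from each other but both above the parental ones. RRM2B, the p53-inducible ribonucleotide reductase subunit, fell by 0.61 in RPMI8226-HR and by 0.26 in IM-9-HR (adjusted p = 4.04e-05 and 0.0136). The lysosomal fucosidase gene FUCA1 fell in U266-HR, KMS-11-HR and RPMI8226-HR, with differences of −0.35, −0.31 and −0.26, and rose by 0.52 in IM-9-HR. DRAM1, a lysosomal membrane protein gene linked to autophagy, fell by 0.64 in IM-9-HR, by 0.50 in KMS-11-HR and by 0.41 in RPMI8226-HR, where the KMS-11 and RPMI8226 arrays were all below the filter level.

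Of the 24 regulators, 7 rose and 3 fell in IM-9-HR, 4 rose and 1 fell in U266-HR, 0 rose and 1 fell in KMS-11-HR, and 2 rose and 4 fell in RPMI8226-HR. Of all genes, 14.4% rose and 21.3% fell in IM-9-HR, 9.68% and 8.42% in U266-HR, 2.44% and 5.83% in KMS-11-HR, and 10.7% and 15.3% in RPMI8226-HR. MDM4, the partner of MDM2 that blocks p53 activity, read 10.04 and 10.03 in IM-9-HR, against 9.48 and 9.58 in parental IM-9, and rose by 0.50 (adjusted p = 0.000131). Its other effects were −0.14 in U266-HR, 0.04 in KMS-11-HR and 0.08 in RPMI8226-HR, none of which passed. ATM, the kinase that signals DNA breaks to p53, rose in IM-9-HR by 0.64 (adjusted p = 4.27e-06) and differed by −0.01 to 0.02 in the other lines. The kinase gene HIPK2 rose by 0.37 in IM-9-HR, 0.55 in U266-HR and 0.55 in RPMI8226-HR (adjusted p = 0.00718, 0.00098 and 0.000679). TP53BP2, which encodes the p53-binding protein ASPP2, read 5.22 and 5.42 in RPMI8226-HR, against 6.86 and 7.04, and fell by 1.63 (adjusted p = 5.39e-08), while it rose by 0.43 in IM-9-HR. Its RPMI8226-HR arrays lay below the filter level, where signal and background are hard to separate, so the size of that fall is uncertain. The checkpoint kinase gene CHEK2 rose by 0.43 in U266-HR and fell by 0.27 in both IM-9-HR, where its HR arrays lay below the filter level, and RPMI8226-HR, and the acetyltransferase gene EP300 rose by 0.43 in IM-9-HR and 0.58 in U266-HR.

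**Figure D3:**
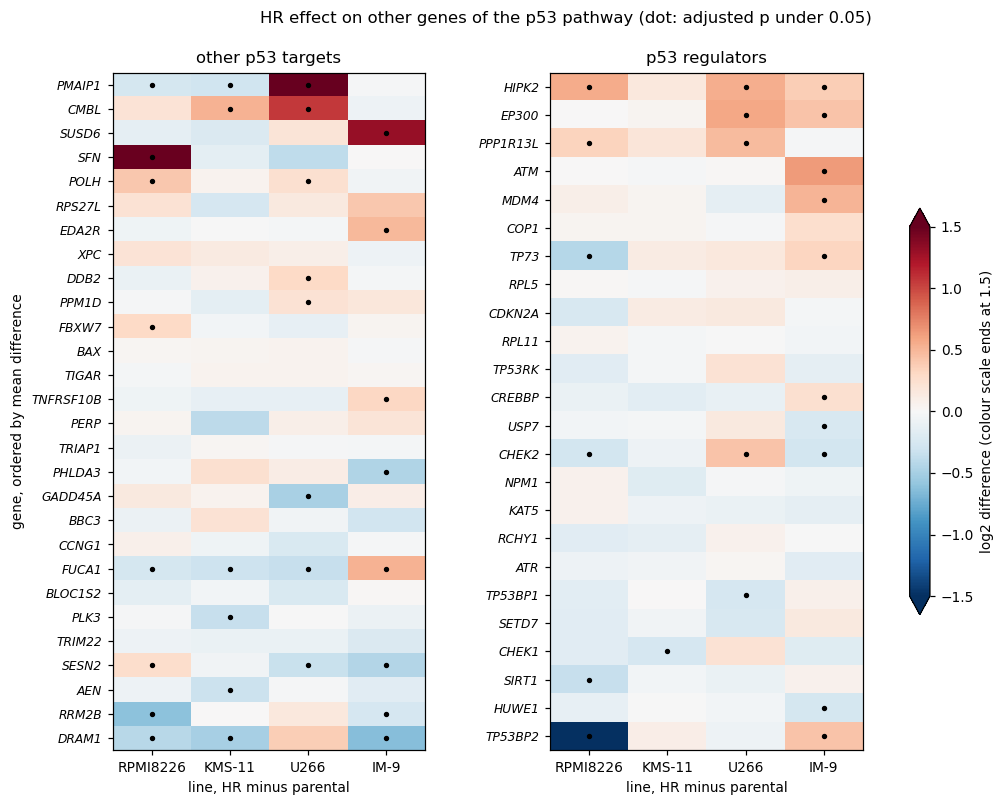
HR minus parental log2 difference by line for the tested genes of the list of other p53 targets (left, 28 genes) and of p53 regulators (right, 24 genes), ordered by their mean; dots mark an adjusted p under 0.05 and the colour scale ends at 1.5. PMAIP1 in U266 (2.49) and TP53BP2 in RPMI8226 (−1.63) lie beyond the ends of the scale.

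Relatives of these genes were also read, 13 of 17 being bright enough to test. SESN3, the third sestrin gene, read 6.87 and 6.65 in IM-9-HR, against 5.00 and 5.09 in parental IM-9, and rose by 1.72 (adjusted p = 6.23e-09); the parental arrays lay below the filter level, so the size of this rise is uncertain. In RPMI8226-HR it read 6.45 and 6.46, against 7.73 and 7.87, and fell by 1.34 (adjusted p = 6.21e-08). SESN1 and SESN3 were thus both called upward in IM-9-HR and downward in RPMI8226-HR. The SESN1 rise in IM-9-HR lay close to the filter level and was lost without either parental array or HR array 2. SESN2 was called in the opposite directions, falling by 0.44 in IM-9-HR and rising by 0.26 in RPMI8226-HR (adjusted p = 0.00089 and 0.0288), and it fell by 0.33 in U266-HR. CDKN1B, the p21 relative p27, rose by 0.42 in IM-9-HR (adjusted p = 0.000387) and fell by 0.32 in RPMI8226-HR (adjusted p = 0.00348). INHBE, of the same growth factor superfamily as GDF15, fell by 0.91 in U266-HR (adjusted p = 7.92e-05). In IM-9 it lay below the filter level on all 4 arrays, at 5.73 and 5.35 in IM-9-HR against 6.02 and 6.09 in parental IM-9 (−0.52, adjusted p = 0.00324). Over the 13 relatives, 4 rose and 3 fell in IM-9-HR, 0 rose and 2 fell in U266-HR, 1 rose in KMS-11-HR, and 3 rose and 4 fell in RPMI8226-HR, with INHBE among the falls in IM-9-HR. The shares over all genes were 14.4% and 21.3%, 9.68% and 8.42%, 2.44% for a rise in KMS-11-HR, and 10.7% and 15.3% in the same order.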

How the data were processed

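For 33297 probe sets on 16 arrays the authors deposited log2 intensities, summarised over probes. The submitters' processing notes name Affymetrix Expression Console 1.3.0; background correction and normalization are not given in the sources used here, and there are no detection calls. Symbols came from the platform table (19460 probe sets with 1 symbol, 1754 with several, 12083 not listed) and were updated by Entrez identifier to RefSeq (19429 matched). Per gene the probe set with the highest mean was kept. Genes above 6.27 on at least 2 arrays were tested, 12639 in all. R 4.3.3 and limma 3.58.1 (lmFit, eBayes, 2-sided) were used with 8 groups sharing 1 spread. P-values were adjusted by Benjamini and Hochberg over all genes tested, with a threshold of 0.05. Across lines, the 8 group means were fitted with a term for each line. The fits were tested on simulated data. The array version given in the design text (2.0 ST) is not that of the platform table (1.0 ST), all of whose probe sets were found among the deposited values. The number of arrays limits the precision.

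All 9 genes, the lists and the tests were chosen with earlier results of these data known. From each of 5 lists the up to 5 genes with the smallest p in the F test of the HR effect were named, with any gene called the same way in at least 3 lines; for likeness, the 2 genes with the highest r. The pairwise tests between HR effects were added after the data were seen. Promoter windows are RefSeq's (GRCh38.p14). Alternatives are given in the closing section.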

Additional observations from a re-analysis of the deposited data

Results flagged for a closer look

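For 6 of the 7 tested p53 target genes the HR effect differed between the 4 lines by limma's F test over all genes. The adjusted p was 9.92e-05 for ZMAT3, 0.000342 for MDM2, 0.00106 for TP53I3, 0.00191 for SESN1, 0.00627 for TP53INP1 and 0.028 for CDKN1A. The same test passed for 45.4% of all genes. The result for CDKN1A was lost without RPMI8226-HR array 1, KMS-11 parental array 1, KMS-11-HR array 1, U266 parental array 1 or U266-HR array 1 (adjusted p from 0.0545 to 0.0783). The other 5 held without any 1 array.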

How the results depend on the processing

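Across 6 settings that keep all arrays (quantile normalization again, no filter, a stricter filter of 7 on at least 4 arrays, the mean of all probe sets, a trended and robust variance, array weights) and the replicate block, the counts of p53 target genes called in each comparison with parental cells, between parental lines and in both F tests stayed within 1.5 times of those reported. Same-numbered HR and parental arrays of a line deviated together at r = 0.11 in IM-9, −0.05 in U266, 0.07 in KMS-11 and 0.20 in RPMI8226, so the numbers were not taken as pairs. The replicate block, which uses the array number, added the call of CDKN1A in IM-9-HR (−0.35, adjusted p = 0.0253), of CDKN1A and ZMAT3 for the HR effect of IM-9 minus U266 (5 genes in place of 3) and of TP53I3 for KMS-11 minus RPMI8226 (adjusted p = 0.0357), and across lines it called 0 of the 7 genes. Leaving out 1 array gave 3 to 6 genes in RPMI8226-HR (5 reported), 0 to 1 in KMS-11-HR (1), 0 to 3 in U266-HR (3) and 3 to 5 in IM-9-HR (4); an array then left alone in its group is assumed to vary like the others. For pairs of HR effects it gave 2 to 6 genes for KMS-11 minus RPMI8226 (5 reported; 2 without the filter), 1 to 3 for IM-9 minus KMS-11 (2) and 0 to 1 for U266 minus KMS-11 (1; 2 with array weights). Of IM-9 minus KMS-11, TP53I3 was lost with quantile normalization, without the filter and with a trended and robust variance (adjusted p from 0.0617 to 0.0928). Signs that turned without 1 array belonged to differences that had not passed: for HR minus parental, TP53INP1 in RPMI8226 (−0.2924 to 0.474), MDM2 in KMS-11 (−0.0375 to 0.0796), TP53I3 in KMS-11 (−0.1093 to 0.016) and ZMAT3 in IM-9 (−0.0076 to 0.19). Between HR effects they were FAS in KMS-11 minus RPMI8226 (−0.0289 to 0.2456), U266 minus RPMI8226 (−0.2453 to 0.0292), IM-9 minus RPMI8226 (−0.0241 to 0.2504) and IM-9 minus KMS-11 (−0.0541 to 0.0637, and −0.064 with quantile normalization), TP53INP1 in U266 minus RPMI8226 (−0.6462 to 0.1203) and IM-9 minus KMS-11 (−0.0947 to 0.1503), TP53I3 in U266 minus RPMI8226 (−0.072 to 0.1146), CDKN1A in U266 minus KMS-11 (−0.0811 to 0.0863) and IM-9 minus RPMI8226 (−0.0663 to 0.4064), and ZMAT3 in IM-9 minus KMS-11 (−0.1372 to 0.0603). Leaving out 1 line of the across-line comparison gave MDM2 −0.1173 to 0.2705, SESN1 −0.0203 to 0.1954 and ZMAT3 −0.1481 to 0.2045, the first 2 turning without IM-9 and ZMAT3 without RPMI8226; without 1 array ZMAT3 was −0.0381 to 0.0123. Over all genes, 1045 calls in KMS-11-HR became 2083 with array weights and 348 to 1208 without 1 array, 2287 in U266-HR became 1425 to 2530 without 1 array, and 1778 calls between the U266 and KMS-11 effects became 2763 with array weights and 1227 to 1976 without 1 array. Across lines 0 became 176 with the replicate block, 88 with groups as a random effect and 1 without RPMI8226. The causes were not tested.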

Other observations

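Genes downstream of the FAS receptor were called more often upward than downward in IM-9-HR, where 4 of the 8 tested rose and 1 fell, beside 14.4% and 21.3% of all genes. In U266-HR 1 rose and 0 fell (9.68% and 8.42% of all genes). In KMS-11-HR 2 rose and 0 fell (2.44% and 5.83%), and in RPMI8226-HR 1 rose and 1 fell (10.7% and 15.3%). The list includes inhibitor genes such as CFLAR, so these counts give no direction for signalling by the receptor. CASP8, the initiator caspase of this receptor, read 8.26 and 8.46 in IM-9-HR, against 7.88 and 7.88 in parental IM-9, and rose by 0.48 (adjusted p = 0.000292). It also rose by 0.41 in KMS-11-HR (adjusted p = 0.005). CFLAR, which encodes the inhibitor of caspase 8 named c-FLIP, rose by 0.51 in IM-9-HR and 0.44 in KMS-11-HR (adjusted p = 0.00075 and 0.00946), so the caspase gene and its inhibitor's gene were called upward in the same lines. CASP10 rose by 0.47 in IM-9-HR and 0.44 in U266-HR. BID, which links the receptor to mitochondria, fell by 0.40 in RPMI8226-HR. The calls of FAIM, a rise by 0.32 in RPMI8226-HR and the 1 fall in IM-9-HR (−0.32), lay below the filter level on all 4 arrays of the line.

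Of the other inhibitors of cyclin dependent kinases, 6 were tested. In IM-9-HR 1 rose and 1 fell, in U266-HR 1 rose and 0 fell, in KMS-11-HR 0 rose and 0 fell, and in RPMI8226-HR 0 rose and 1 fell. The shares of all genes that rose and fell were 14.4% and 21.3%, 9.68% and 8.42%, 2.44% and 5.83%, and 10.7% and 15.3%, in the same order. Beside CDKN1B, the gene called was CDKN3, a phosphatase of cyclin dependent kinases, which read 8.01 and 8.15 in IM-9-HR, against 8.70 and 8.97 in parental IM-9, and fell by 0.75 (adjusted p = 0.000122). In U266-HR it rose by 0.49 (adjusted p = 0.00543). CDKN2A, CDKN1C and CDKN2D passed in no line, with differences from −0.24 to 0.27.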
